A study of Homo sapiens with 2 samples.

Results

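The data here concern 177 genes named as ubiquitin ligases or ubiquitin-conjugating (E2) enzymes, out of 14812 genes named on the arrays. They were chosen by symbol alone. The symbols were those of the RING finger (*RNF*), tripartite motif (*TRIM*), membrane-associated RING-CH (*MARCHF*), *HERC*, *NEDD4* and *WWP* families, *ITCH*, *UBE3* and the E2 enzymes (*UBE2*). *RNF43* was left out by the rule. Of the 177 genes, 143 were protein-coding genes with a ligase family symbol and 23 were protein-coding genes with an E2 symbol. They are called ligases and E2 enzymes below by symbol, whether or not each product has that activity. The other 11 were pseudogenes or non-coding RNAs that carry a family symbol. No filter on low values was applied, so every one of the 177 genes is counted below.

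The arrays compared 2 transfections of HT29, an established human colon cancer cell line. One array held RNA of HT29 cells that received a control siRNA (siControl), and the other RNA of HT29 cells that received an siRNA against *REG4* (siREG4), with 1 array per group. One label of the siREG4 array gives GATA6 as the target, whereas its title and source name give REG4, and the array is called siREG4 after its title. The time between transfection and RNA isolation, and which of the REG4 and control siRNAs of the study was used for these arrays, are not stated for these arrays. The deposited values are on a log scale, taken as log2, and were centred per probe set, so that the siControl and siREG4 values of a probe set mirror each other around 0. They hold a difference between the arrays and no level. The identity of the cells could therefore not be checked against markers, and no gene could be called expressed or silent. With 1 array per group no difference below has a replicate check or a p-value. *REG4* itself was not analysed here, since no probe set carried its symbol as the only one. The lowering of *REG4* by the siRNA could therefore not be checked in these values.

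Ubiquitin is attached to proteins in a relay. An E1 enzyme activates it, an E2 enzyme carries it, and an E3 ligase selects the substrate. RING ligases, to which most RNF, TRIM and MARCHF proteins belong, bring the loaded E2 next to the substrate, whereas HECT ligases (the HERC, NEDD4, WWP, ITCH and most UBE3 proteins) first take ubiquitin onto a cysteine of their own. RBR ligases combine both steps. Some E2 enzymes are tied to the cell cycle: UBE2C and UBE2S serve the anaphase-promoting complex (APC/C), the RING ligase that ends mitosis, and UBE2T serves the Fanconi anaemia pathway of DNA crosslink repair.

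Promoter sequences are shown for 4 genes to which the values below return: the pair of cell cycle E2 genes that were measured, the ligase gene with the largest difference, and *TRIM21*. They are RefSeq sequences of build GRCh38.p14, read 5′ to 3′ along the gene's own strand. For *UBE2T* (chr1:202341937-202342186, minus strand), *UBE2S* (chr19:55407789-55408038, minus strand) and *RNF141* (chr11:10541188-10541437, minus strand) they are the 250 bases before the annotated start. Capitals mark matches on either strand to 2 elements found in many cell cycle promoters, TTTGAA (the CHR element) and CCAAT. For *TRIM21* (chr11:4393664-4393693, minus strand) they are 30 bases just after the start, and capitals mark the core of interferon response elements (GAAA, any 2 bases, GAAA), which occurs there as 2 overlapping copies.
UBE2T: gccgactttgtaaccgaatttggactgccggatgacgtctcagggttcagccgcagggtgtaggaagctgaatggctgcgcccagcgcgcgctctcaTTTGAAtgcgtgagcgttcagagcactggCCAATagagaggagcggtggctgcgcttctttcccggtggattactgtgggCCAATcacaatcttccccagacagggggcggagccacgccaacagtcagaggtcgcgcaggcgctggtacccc
UBE2S: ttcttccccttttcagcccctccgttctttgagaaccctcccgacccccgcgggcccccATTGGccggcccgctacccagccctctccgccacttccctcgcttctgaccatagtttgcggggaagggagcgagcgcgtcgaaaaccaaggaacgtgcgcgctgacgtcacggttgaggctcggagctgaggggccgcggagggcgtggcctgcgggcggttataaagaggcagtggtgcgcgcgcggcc
RNF141: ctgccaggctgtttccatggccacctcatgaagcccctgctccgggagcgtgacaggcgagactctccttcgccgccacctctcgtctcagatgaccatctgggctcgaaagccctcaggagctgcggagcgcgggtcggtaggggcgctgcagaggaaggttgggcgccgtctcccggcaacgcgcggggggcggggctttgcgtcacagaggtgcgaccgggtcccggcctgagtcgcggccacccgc
TRIM21: tctgagcgGAAACTGAAAGTGAAAtaggga

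In *UBE2T* the letters TTTGAA began 153 bases before the start, and CCAAT began 124 and 73 bases before it. In *UBE2S* a CCAAT match on the opposite strand began 191 bases before the start, and TTTGAA was not among the letters of its window. *RNF141* had neither. Windows of 300 bases (250 before and 50 after the start) were at hand for 134 of the 166 protein-coding members, and each motif was searched in them on both strands. TTTGAA was found in 12.0% of the 191 windows of members and in 12.4% of the 22198 windows of all protein-coding genes, and CCAAT in 35.1% and 34.7%. A loose form of the E2F motif, TTTNNCGC, was found in 5.24% and 8.33%. The interferon response core was found in 6.28% of the members' windows and in 3.17% of all. These are matches of letters and do not show that a factor was bound.

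The first question was whether the ligases as a family differed between the arrays. They did not stand away from 0: the median difference in log2 value, siREG4 minus siControl, was 0.00 over the 143 ligases, and 72 lay above 0, 66 below and 5 at exactly 0. Of the 11910 protein-coding genes, 5679 lay above 0, 5863 below and 368 at 0. The study counted decreases past 1.4-fold, and the same threshold was applied here in both directions. Past it, 3 ligases were lower in siREG4 (2.10%), against 2.04% of the 11910 protein-coding genes. The higher side held 1 ligase (0.70%), against 1.68% of protein-coding genes. None of the 23 E2 enzymes passed 1.4-fold in either direction (0 genes), against 3.72% of protein-coding genes. At that share so small a group would hold few or none. Of all 177 members 4 passed (2.26%), against 3.19% of all named genes, so the share of the family that passed was close to or below that of the other genes. The *KRTAP* genes, hair keratin-associated genes taken as silent in colon cells, served as a gauge of array noise, with an SD of 0.09 across 85 genes and a range from -0.22 to 0.30. Outside that range lay 16.8% of the ligases and 15.8% of protein-coding genes. The middle of the distribution was alike too, with 55.9% of ligases and 58.3% of protein-coding genes within 0.1 of 0. Whether a gauge from genes taken as silent fits expressed genes could not be tested, since the values hold no level.

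**Figure D1:**
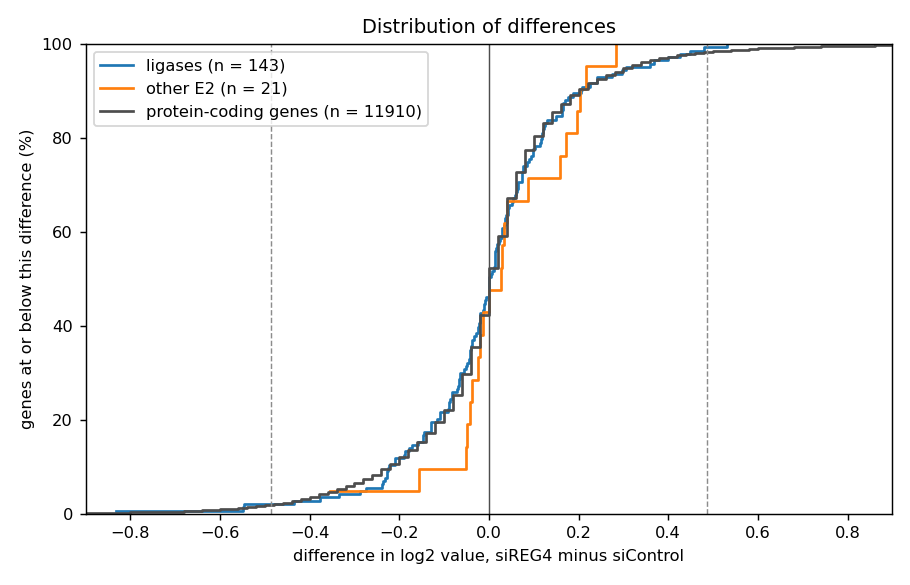
Cumulative share of genes (y axis, percent) at or below each difference in log2 value, siREG4 minus siControl (x axis), for 143 ligases, 21 E2 enzymes other than the cell cycle ones, and 11910 protein-coding genes (drawn in steps of 0.02). Dashed lines mark 1.4-fold; the ligase curve runs close to that of protein-coding genes, and no E2 of this group lies beyond the dashed lines.

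By family, the medians were 0.01 for the 66 *RNF* genes, -0.01 for the 61 *TRIM* genes, 0.04 for the 13 HECT ligases and 0.16 for the 3 *MARCHF* genes. The spread across genes was also similar, with an SD of 0.20 for *RNF*, 0.17 for *TRIM* and 0.21 for HECT genes. The E2 enzymes outside the cell cycle had a median of 0.03 and an SD of 0.14 over 21 genes, of which 11 lay above 0, 9 below and 1 at 0. Of the cell cycle E2 genes, *UBE2T* (-0.48) lay below every other E2 gene. *UBE2S* (-0.09) lay within the range of the *KRTAP* genes, and above *UBE2K* (-0.35) and *UBE2N* (-0.16) of the other E2 enzymes. *UBE2C* was not analysed here for want of a named probe set, so that group rests on 2 genes.

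**Figure D2:**
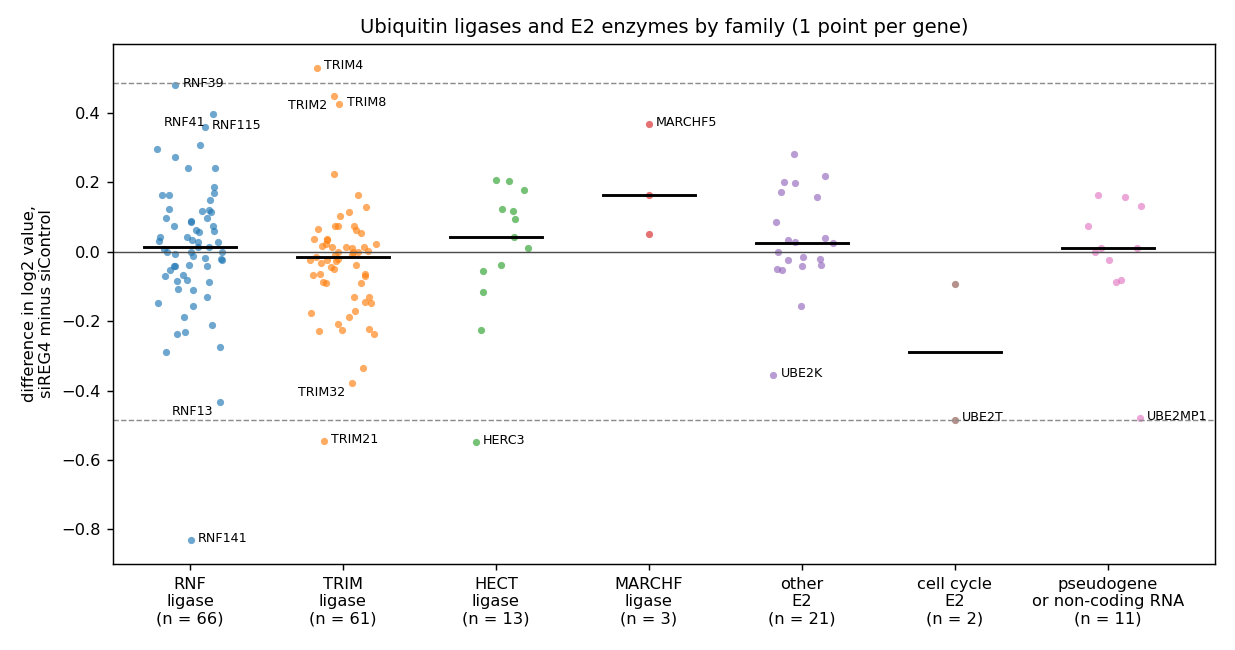
Difference in log2 value, siREG4 minus siControl (y axis), for each of the 177 genes by family, with 1 point per gene (spread sideways for legibility), black bars at the family medians and dashed lines at 1.4-fold. Of the points, 3 lie below the lower line (*RNF141*, *HERC3* and *TRIM21*) and 1 above the upper line (*TRIM4*), while *UBE2T*, *UBE2MP1* and *RNF39* lie just inside.

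The largest difference of the family belonged to *RNF141*, which encodes a RING finger protein first described in testis. Its value was 0.42 on the siControl array and -0.42 on the siREG4 array. It was thus lower in siREG4 by 1.78-fold (-0.83), and 28 genes of the 14812 lay lower still. *HERC3*, a HECT ligase with an RCC1-like domain, was at 0.27 in siControl and -0.27 in siREG4, which is 1.46-fold lower (-0.55). *TRIM21*, a cytosolic antibody receptor and interferon-induced ligase also known as the autoantigen Ro52, was likewise at 0.27 and -0.27, which is 1.46-fold lower (-0.55). These 3 genes come from 3 different families, each is read by 1 probe set, and the rest of each family was spread around 0.

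The ligase that was higher past 1.4-fold was *TRIM4*, a RING ligase reported to act on the RNA sensor RIG-I. Its value was -0.27 in siControl and 0.27 in siREG4, which is 1.44-fold higher (0.53). *RNF39*, a gene of the major histocompatibility complex (MHC) region, came next at 0.48, followed by *TRIM2* (0.45), an NHL-domain ligase of neurons, and *TRIM8* (0.43), a RING protein linked to cytokine signalling. *RNF41*, also called NRDP1, a ligase that lowers the receptor ERBB3, was at 0.40. *MARCHF5*, a ligase of the mitochondrial outer membrane, was at 0.37 and *RNF115* at 0.36. None of these last 6 passed 1.4-fold. On the lower side, *RNF13*, a ligase of endosomal membranes, was at -0.43, and *TRIM32*, an NHL-domain ligase mutated in a limb-girdle muscular dystrophy, was at -0.38. These also lay inside the threshold, and outside the range of the *KRTAP* genes.

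**Figure D3:**
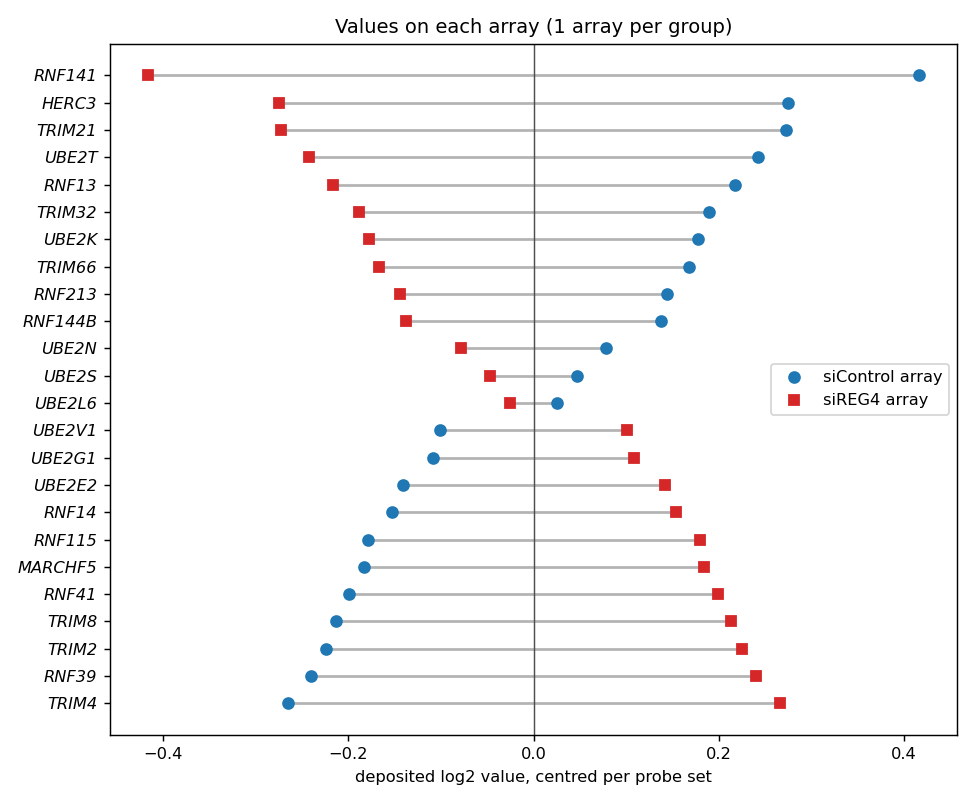
Deposited log values, taken as log2 and centred per probe set (x axis), on the siControl array (circles) and the siREG4 array (squares). Shown are the 8 lowest and 8 highest ligases, the 3 lowest and 3 highest other E2 enzymes and the 2 cell cycle E2 genes, ordered by difference. The paired points mirror each other around 0 through the centring, and the gap is widest for *RNF141* (0.42 and -0.42).

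The second question was how the E2 enzymes compared with the ligases they serve. *UBE2T*, whose product works with the ligase FANCL, was at 0.24 in siControl and -0.24 in siREG4. Its difference of -0.484 was the lowest of all E2 enzymes, and it lay just inside the 1.4-fold threshold of 0.485. *UBE2S*, which lengthens ubiquitin chains on APC/C substrates, was at 0.05 and -0.05, a difference of -0.09 that lay within the range of the *KRTAP* genes. The differences of the pair were thus unequal. Whether the letters of a promoter window relate to the size of a difference was not tested.

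Among the other E2 enzymes, *UBE2K*, which builds lysine 48-linked chains, was lowest at -0.35 and the only one outside the *KRTAP* range. Next came *UBE2N* (-0.16), which builds lysine 63-linked chains, and *UBE2L6* (-0.05), the E2 of the ubiquitin-like protein ISG15. *UBE2E2* was highest (0.28), followed by *UBE2G1* (0.22) and *UBE2V1* (0.20). *UBE2N* works as a dimer with an inactive E2 variant, UBE2V1 or UBE2V2. *UBE2N* and *UBE2V1* differed in sign, and *UBE2V2* was at 0 on both arrays. *UBE2A* (0.16) and *UBE2B* (0.09), close paralogs that work with RAD18 in DNA damage tolerance, both lay above 0 and within the *KRTAP* range. *UBE2H*, the E2 of the CTLH ligase, was at 0.20. The widely used *UBE2D1*, *UBE2D2*, *UBE2D3* and *UBE2L3*, and the E2 enzymes of NEDD8 (*UBE2M*, *UBE2F*), had no named probe set and were not analysed here.

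Within the 13 HECT ligases, *HERC3* alone was lower past 1.4-fold (7.69%, against 2.04% of protein-coding genes). In so small a group that share rests on 1 gene. *HERC6* was at -0.23, *UBE3C* at -0.12, *UBE3A*, the gene of Angelman syndrome, at -0.05 and *UBE3D* at -0.04. The large *HERC1* and *HERC2* were at 0.04 and 0.09, *HERC5* at 0.01, and *HERC4* at 0.18. *ITCH* (0.20), *WWP1* (0.12) and *WWP2* (0.12), the measured members that share the C2, WW and HECT domains of NEDD4, were all above 0. So was *UBE3B* (0.21), the highest HECT ligase of the family. *HERC3* and *HERC6* lay below the range of the *KRTAP* genes, and the other HECT ligases of the family lay within it. *NEDD4* and *NEDD4L* had no named probe set and were not analysed here.

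The *RNF* genes were also examined by the role of their products. Past 1.4-fold in either direction lay 3.72% of protein-coding genes, so lists of this size would hold few or no such genes at the background share. Of 22 measured *RNF* genes for membrane proteins, 0 passed 1.4-fold, 11 lay above 0 and 10 below, and the median was 0.00. They ran from *RNF13* (-0.43) to *RNF24* (0.30). *RNF145* and *RNF139*, ligases of the endoplasmic reticulum that take part in the turnover of sterol enzymes, lay on opposite sides, at -0.24 and 0.19. Of 9 measured genes for nuclear RNF proteins, 0 passed, with a median of 0.00. They ran from *RNF10* (-0.15) to *RNF111* (0.16). *RNF4* and *RNF111*, ligases that recognise SUMO-modified proteins, were at -0.13 and 0.16. The DNA damage ligase genes *RNF8* and *RNF168* and the histone H2A and H2B ligase genes *RNF2*, *RNF20* and *RNF40* had no named probe set and were not analysed here. Of 7 measured RBR ligases, 0 passed, from *RNF144B* (-0.28) and *RNF31* (-0.19), the catalytic subunit of the linear chain complex LUBAC, to *RNF14* (0.31), an androgen receptor coactivator. *RNF7*, which encodes the RING subunit of cullin ligases next to RBX1, was at 0.17.

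Among the *TRIM* genes, the 4 chromatin-bound TIF1 members were measured, and 3 lay below 0, against 5863 of the 11910 protein-coding genes. *TRIM66* was at -0.33, *TRIM24*, a reader of histone marks, at -0.23 and *TRIM28*, the corepressor KAP1, at -0.18, whereas *TRIM33*, a regulator of SMAD4, was at 0.05. None passed 1.4-fold. The measured TRIM genes with an NHL domain differed in sign, with *TRIM32* at -0.38, *TRIM3* at -0.15 and *TRIM2* at 0.45. *TRIM37*, a ligase that limits centrosome assembly, was at -0.21. *TRIM14*, *TRIM16*, *TRIM29*, *TRIM44* and *TRIM66* belong to the family by name but lack the RING domain, and ran from -0.33 to 0.13. The TIF1, NHL and RING-less groups were formed after the values were seen. Tissue-restricted members lay near 0. The 9 measured *TRIM* genes of the germline copy group (*TRIM43*, *TRIM48*, *TRIM49*, *TRIM64*, *TRIM74* and close copies) ran from *TRIM49* (-0.09) to *TRIM64B* (0.07). Probe sets can read several of these near-identical copies. The 3 measured muscle ligase genes ran from *TRIM55* (-0.04) to *TRIM72* (0.03), while *TRIM63* was not among the named genes and was not analysed here.

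Interferon-linked members were looked at as a group because transfected RNA can induce them. The control was transfected too, so induction of equal size on both arrays would not appear in the difference. Whether induction was unequal between the arrays was not tested. Of the 15 measured genes, 1 was lower past 1.4-fold (*TRIM21*; 6.67%, against 2.04% of protein-coding genes) and 0 were higher (against 1.68%), with a median of 0.00, 7 below 0 and 6 above. The share of 6.67% rests on 1 gene. *RNF213*, a giant ligase with an ATPase motor, was at -0.29, *TRIM14*, an adaptor of the sensor cGAS, at -0.24 and *HERC6* at -0.23. The others lay between -0.07 (*TRIM26*) and 0.16 (*TRIM38*). *TRIM25*, the ligase that activates RIG-I, was at 0.01, *HERC5*, the main human ISG15 ligase, at 0.01, and *TRIM5*, the retroviral restriction factor, at 0.00. Promoter windows were at hand for 13 of these genes, and 6 held the interferon response core printed above for *TRIM21*. The differences of those 6 were -0.55 (*TRIM21*), -0.24 (*TRIM14*), -0.07 (*TRIM26*), 0.00 (*TRIM5*), 0.00 (*TRIM69*, at 0 on both arrays) and 0.01 (*HERC5*). *RNF213* (-0.29) and *HERC6* (-0.23) did not hold it in their windows. Of the 6 genes with the core, *TRIM21* alone passed 1.4-fold.

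How far a single value can be trusted can be read in part from genes with several probe sets. Of the 177 genes, 167 had 1 probe set and 10 had several. The genes with 5 or more were *RNF39* and 5 *TRIM* genes of the MHC region and its flank, which the reference genome carries in several haplotype versions. Their probe sets may share probes, and some gave equal values, so they are not independent measurements. The 7 probe sets of *RNF39* ran from 0.36 to 0.53, with a median of 0.53. Of them 5 were higher past 1.4-fold, while the gene's mean of 0.48 was not. The 8 probe sets of *TRIM15* ran from -0.27 to -0.20 and the 5 of *TRIM31*, a ligase that limits the NLRP3 inflammasome, from -0.18 to -0.16. The 8 of *TRIM10* all lay at -0.09. In contrast, the 8 of *TRIM27* ran from -0.04 to 0.37, with a median of 0.00 and an SD of 0.13 across probe sets. The 8 probe sets of *TRIM40* ran from 0.00 to 0.11. Genes with 2 probe sets also differed within the gene, as for *RNF32*, at -0.05 and 0.30. *RNF26* was at -0.22 on 1 probe set, and its other probe set was at 0 on both arrays.

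**Figure D4:**
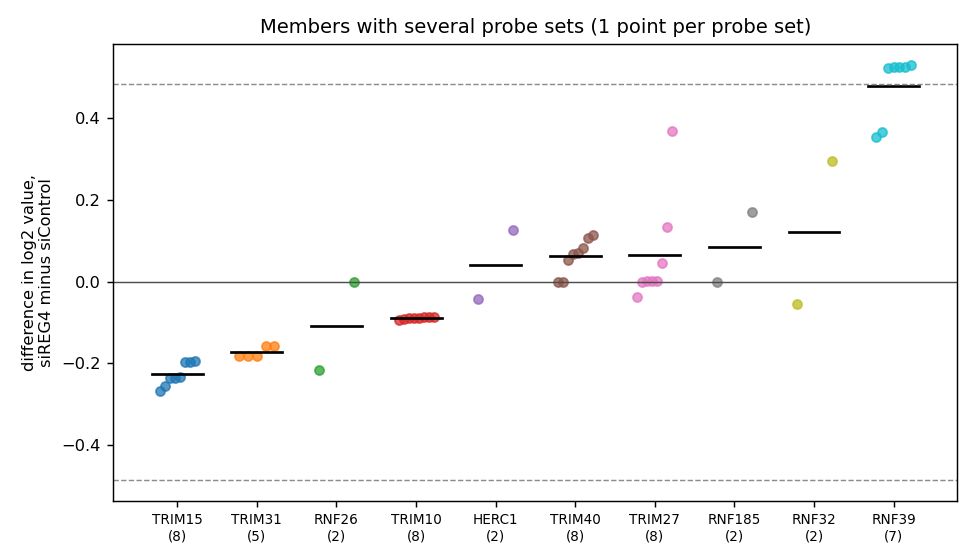
Difference in log2 value, siREG4 minus siControl (y axis), for each probe set of the 10 members with several probe sets (the number is given under each name), with black bars at the mean used for the gene and dashed lines at 1.4-fold. The probe sets of *TRIM10*, *TRIM15* and *TRIM31* lie close together, those of *TRIM27* spread up to 0.37, and 5 of 7 for *RNF39* lie above the upper line.

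Other genes of the ubiquitin system were counted from lists for comparison. Of 8 other HECT ligases measured, 3 were higher past 1.4-fold (37.5%, against 1.68% of protein-coding genes) and 0 lower, with a median of 0.20. *SMURF1*, an antagonist of BMP and TGF-beta signalling, was at -0.29 in siControl and 0.29 in siREG4, a difference of 0.59. *AREL1*, a ligase for antagonists of apoptosis inhibitors, was at 0.57, and *SMURF2*, the paralog of SMURF1, was at 0.50, just past the threshold. *TRIP12* (-0.09) and *HACE1* (-0.06) were the lowest. *SMURF1* and *SMURF2* share the domains of the NEDD4 family. With *ITCH*, *WWP1* and *WWP2*, all 5 measured members of that family lay above 0 (0.12 to 0.59), against 5679 of the 11910 protein-coding genes. Of these 5, only *SMURF1* and *SMURF2* lay outside the range of the *KRTAP* genes. The NEDD4 family group was formed after the values were seen.

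Of 59 other RING proteins, 4 were lower past 1.4-fold (6.78%, against 2.04% of protein-coding genes) and 0 were higher, with a median of 0.01. The 4 were *DTX3L* (-0.65), a ligase that acts with PARP9, *BARD1* (-0.65), the partner of BRCA1, *DTX4* (-0.57), a Deltex ligase linked to Notch signalling, and *UBR3* (-0.49), which lay just past the threshold and just inside it after quantile normalization (-0.48). *MEX3A* (0.45), an RNA-binding RING protein, and *PCGF3* (0.42), a Polycomb subunit, were the highest. The first probe set of *MEX3A* alone gave 0.16. Of the 16 subunits and activators of the APC/C, 13 lay below 0 and 3 above, with a median of -0.06. Among the 11910 protein-coding genes, 5863 lay below 0. Of the 16 APC/C genes, 1 was lower past 1.4-fold, *CDC23* (-0.57; 6.25%, against 2.04% of protein-coding genes), so that share rests on 1 gene. *ANAPC5* was at -0.34, and *ANAPC13* (0.14) and *ANAPC2* (0.38), its cullin subunit, were the highest. Of the 16 genes 10 lay within 0.1 of 0, among them *CDC20* (-0.05), the mitotic activator. Of the 8 measured genes of E1 enzymes and ubiquitin 0 passed 1.4-fold, against 3.72% of protein-coding genes, and the median was -0.01. They ran from *SAE1* (-0.25), of the SUMO E1, and *NAE1* (-0.17), of the NEDD8 E1, to *UBA1* (0.11), the main ubiquitin E1, and the ubiquitin gene *UBB* (0.18). Of 50 listed proteasome genes only *ADRM1* (-0.11) and *POMP* (-0.06) had a named probe set.

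**Figure D5:**
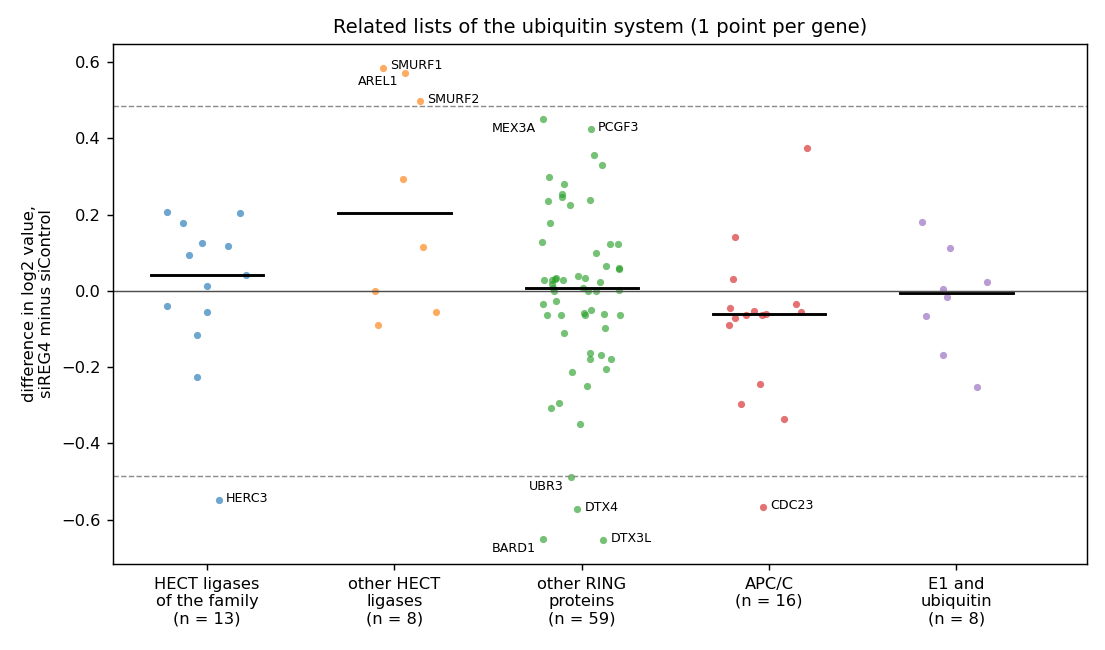
Difference in log2 value, siREG4 minus siControl (y axis), for the HECT ligases of the family and for 4 related lists, with 1 point per gene (spread sideways for legibility), black bars at the medians and dashed lines at 1.4-fold. Of the 8 other HECT ligases 3 lie above the upper line, and of the 59 other RING proteins 4 lie below the lower line.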

How the data were processed

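Total RNA of HT29 cells was prepared with the WT PLUS reagent kit and hybridised to Affymetrix Human Gene 2.0 ST arrays, and GeneSpring was used by the authors to evaluate them. The authors deposited 1 table of log2 values for 44629 probe sets on 2 arrays, centred per probe set (the columns sum to 0 within 1e-06). The log base was taken as 2. Background correction, summarization, normalization and filters were not stated. Values of 0 on both arrays were held by 1838 probe sets, for which no reason was stated. The number of arrays limits the precision.

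A platform annotation named 15835 probe sets with 1 symbol each. The difference was siREG4 minus siControl, averaged over a gene's probe sets (219 for the 177 members). Gene types and promoter windows came from RefSeq tables (GRCh38.p14), which served for names and sequences only. Genes past 1.4-fold, which the study applied to decreases, were counted in both directions. No test was run, with 1 array per group. The members and lists were chosen with earlier results of these data known. Named were members past 1.4-fold, the cell cycle E2 genes, the 5 lowest and 5 highest ligases, the 3 lowest and 3 highest other E2 enzymes, the lowest and highest of each role list and the 2 lowest and 2 highest of each related list; other names were chosen after their values were seen. The selection and counting steps were tested on simulated data. Alternatives were quantile normalization, centring on the protein-coding median, the first probe set per gene, 1.2-fold and 2-fold thresholds, the mean over genes, and leaving out germline copy *TRIM* genes or probe sets at 0 on both arrays. Python 3.11.15, numpy 2.4.6, pandas 2.3.3 and matplotlib 3.10.9 were used.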

Additional observations from a re-analysis of the deposited data

How the results depend on the processing

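Quantile normalization and the first probe set per gene each gave 2 ligases higher past 1.4-fold in place of 1, with *RNF39* added to *TRIM4* in both, and 3 lower as before. At 1.2-fold, 8 ligases were lower (5.59%) and 10 higher (6.99%), and 2 E2 enzymes were lower (8.70%) and 1 higher (4.35%), against 8.18% and 6.57% of protein-coding genes. At 2-fold, 0 ligases were lower and 0 higher, against 0.11% and 0.20% of protein-coding genes. These last changes follow from the thresholds. The medians of the ligases, of the E2 enzymes and of the cell cycle E2 genes moved by no more than 0.05 under every alternative run, and centring on the protein-coding median moved nothing, since that median was 0. Over the 270 genes of the family and of the lists, quantile normalization moved 1 by more than 0.05, *RNF141* (to -0.89), and took *UBR3* (-0.48) inside 1.4-fold. The first probe set moved 9, *MEX3A* most (to 0.16), and *HERC1*, *RNF32* and *MEX3D*, all inside 1.4-fold, changed sign (to -0.04, -0.05 and -0.08). None of the 12 genes past 1.4-fold changed sign under quantile normalization. The first probe set and the protein-coding median could not change them, since each has 1 probe set and that median was 0. Quantile normalization acted on values already centred per probe set, so it cannot show how another normalization of the array signals would act. No paired analysis was possible because each group has 1 array, and for the same reason no array could be left out. The values hold no signal level, so members that are silent in these cells, which add values near 0 to the medians, could not be set apart.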

Other observations

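Pseudogenes and non-coding RNAs with a family symbol were measured beside the coding genes. Of these 11 genes none passed 1.4-fold (0 genes, against 3.19% of all named genes, a share at which so small a group would hold few or none), and the median difference was 0.01. *UBE2MP1*, a pseudogene of the NEDD8 E2 gene *UBE2M*, was the lowest, at 0.24 in siControl and -0.24 in siREG4 (-0.48), just inside the threshold. Probe sets of a pseudogene can read the parent transcript, and *UBE2M* itself had no named probe set. The antisense RNA *RNF213-AS1* was at 0.16, against -0.29 for *RNF213*, whereas *RNF157-AS1* and *RNF157* were at 0.13 and 0.03. *RNF217-AS1* and *RNF217* were at 0.01 and 0.03. *UBE2Q2P1* (0.16) lay close to its parent *UBE2Q2* (0.17), while *RNF216P1* (0.07) did not follow *RNF216* (-0.08). *RNF126P1* was at 0 on both arrays, against -0.23 for *RNF126*. How far signals of parent and copy are mixed on these probe sets was not tested.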
